A study of Homo sapiens with 6 samples.

Results

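The mRNA decay machinery was followed through 36 genes that encode the deadenylases, the decapping complex, the LSM ring, the exonucleases and their cofactors. The genes were taken from a list of names and matched to Ensembl identifiers. All 36 were present in both deposited tables and had enough signal to be tested, among 15001 tested genes. The cells were U2OS, an established human osteosarcoma line, collected in logarithmic growth. Of the 6 poly(A)-selected libraries, 3 came from wild-type (WT) cells and 3 from G3C2, an edited line labelled ZFP36L1 deficient that was made with CRISPR/Cas9. Each genotype had a library with no letter, called replicate 1 here, and libraries lettered b and c. Replicate 1 stood in the first table and replicates b and c in the second. G3C2 was the only edited line and is called the clone below, although the labels do not say how it was isolated. The effects of genotype and of line cannot be told apart. The labels do not say which libraries were grown together, so p-values reflect only how far these libraries vary, which may be technical.

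Shortening of the poly(A) tail usually starts the decay of a cytoplasmic mRNA. The PAN2-PAN3 and CCR4-NOT complexes degrade the tail, which is coated by its binding protein PABPC1. After this the LSM ring and PATL1 settle on the shortened end and draw in the decapping enzyme DCP2. XRN1 then degrades the uncapped body of the message. ZFP36L1 recognises AU-rich elements of target messages and recruits CCR4-NOT, so many of these genes act downstream of it.

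The library labels were first set beside the targeted gene. ZFP36L1 mRNA was at 165 FPKM in WT against 238 in the clone for replicate 1, 57.1 against 105 for b, and 128 against 82.4 for c. The clone exceeded WT in 2 of 3 pairs (log2 fold change 0.26, SE 0.33, limma adjusted p = 0.752). The edit was not located here, and an edit may remove the protein without lowering the transcript, so this level does not check the genotype. Of 7 markers of osteosarcoma or mesenchymal cells, RUNX2, COL1A1, SPARC and VIM were at 1 FPKM or more in all 6 libraries. COL1A2, ALPL and TWIST1 lay below 1 FPKM in all 6. Among markers of other cell types, EPCAM (epithelial) was at 3.05 to 18.7 FPKM and SNAP25 (neural) at 2.15 to 9.28 FPKM. Each was the only 1 of the 4 markers in its list at 1 FPKM or more in all 6 libraries. Below 1 FPKM in all 6 lay 2 of the 4 epithelial markers and 1 of the 4 neural ones. The blood markers PTPRC and CD3E reached at most 0.44 and 0 FPKM, and the 4 endothelial markers summed to between 0.23 and 2.03 FPKM. Genes of the mitochondrial genome took 14.0% of the summed FPKM in WT replicate c and between 6.73% and 8.83% in the other libraries of the second table.

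Several of the members carry the AU-rich heptamer TATTTAT that ZFP36 family proteins recognise in their targets. It was searched on the sense strand of the longest 3′ untranslated region annotated by GENCODE 29. The sites of the 3 members with an unadjusted limma p under 0.05 are shown first, because these members had the smallest p of the 36. The site of UPF1 is added as the one longer match, TTATTTATT, among the members. Each is written 5′ to 3′ on the transcript strand with the heptamer in capitals.
CNOT6, first site, chr5:180577021-180577049, plus strand: ttagtggtcatTATTTATgctttgagagt
CNOT6, second site, chr5:180577879-180577907, plus strand: agctagcattaTATTTATatacagggtct
CNOT8, chr5:154876731-154876759, plus strand: cttgtaaatacTATTTATgtttttaattt
DCP1A, chr3:53286442-53286470, minus strand: gccatgatttcTATTTATtcttttatggc
UPF1, chr19:18867923-18867951, plus strand: gcagggactctTATTTATtcccattgctc
The coordinates are those of GRCh38. The first CNOT6 site begins 2832 bases into an untranslated region of 4205 bases, and the CNOT8 site lies 1303 bases into one of 1354.

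The heptamer was found in 16 of 36 members (44.4%) and in 36.1% of 12112 tested protein-coding genes with an annotated 3′ untranslated region. Members had a median region of 1760 bases against 1408 for all of these genes, and held 0.284 heptamers per kilobase against 0.316. The shorter ATTTA, which every heptamer contains, was present in 28 members (77.8%) and in 74.2% of all. The nonamer TTATTTATT was present in 1 member (2.78%) and in 9.58% of all. Among members with repeated matches, DCP2 and XRN1 held 3 heptamers each, and CNOT2, CNOT6 and CNOT6L held 2 each. No heptamer was found in TOB1, DDX6 or EIF4ENIF1, which are described below. A match is a string of letters and was not tested for binding.

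The comparison of the clone with WT asks whether cells labelled as lacking ZFP36L1 express the decay machinery at another level. No member passed the adjusted threshold (limma, lowest adjusted p = 0.211, for CNOT6), where 0.0467% of all 15001 genes did. At an unadjusted limma p under 0.05, CNOT8 and DCP1A were higher and CNOT6 was lower. That is 3 of 36 members, or 8.33%, against 13.6% of all tested genes. By direction, 6.19% of all genes were higher and 7.43% lower at this level. The members' median log2 fold change was 0.09 and that of all genes 0.01, and the median size without sign was 0.17 against 0.20. A log2 fold change of at least 0.5 in size was reached by CNOT6, TOB1 and DCP1B, 3 of 36, where 14.2% of all genes reached it. Scaling the libraries to equal medians gave 4 members higher and 1 lower at an unadjusted p under 0.05, where 14.2% of all genes passed in either direction. With the replicate block 0 were higher and 1 lower, against 11.9% of all genes. In that blocked limma fit the unadjusted p was 0.0557 for CNOT8 and 0.0638 for DCP1A. Limma-voom on the reads recovered from the second table gave 0 higher and 1 lower, against 7.77% of all genes, and no adjusted call among the members.

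**Figure D1:**
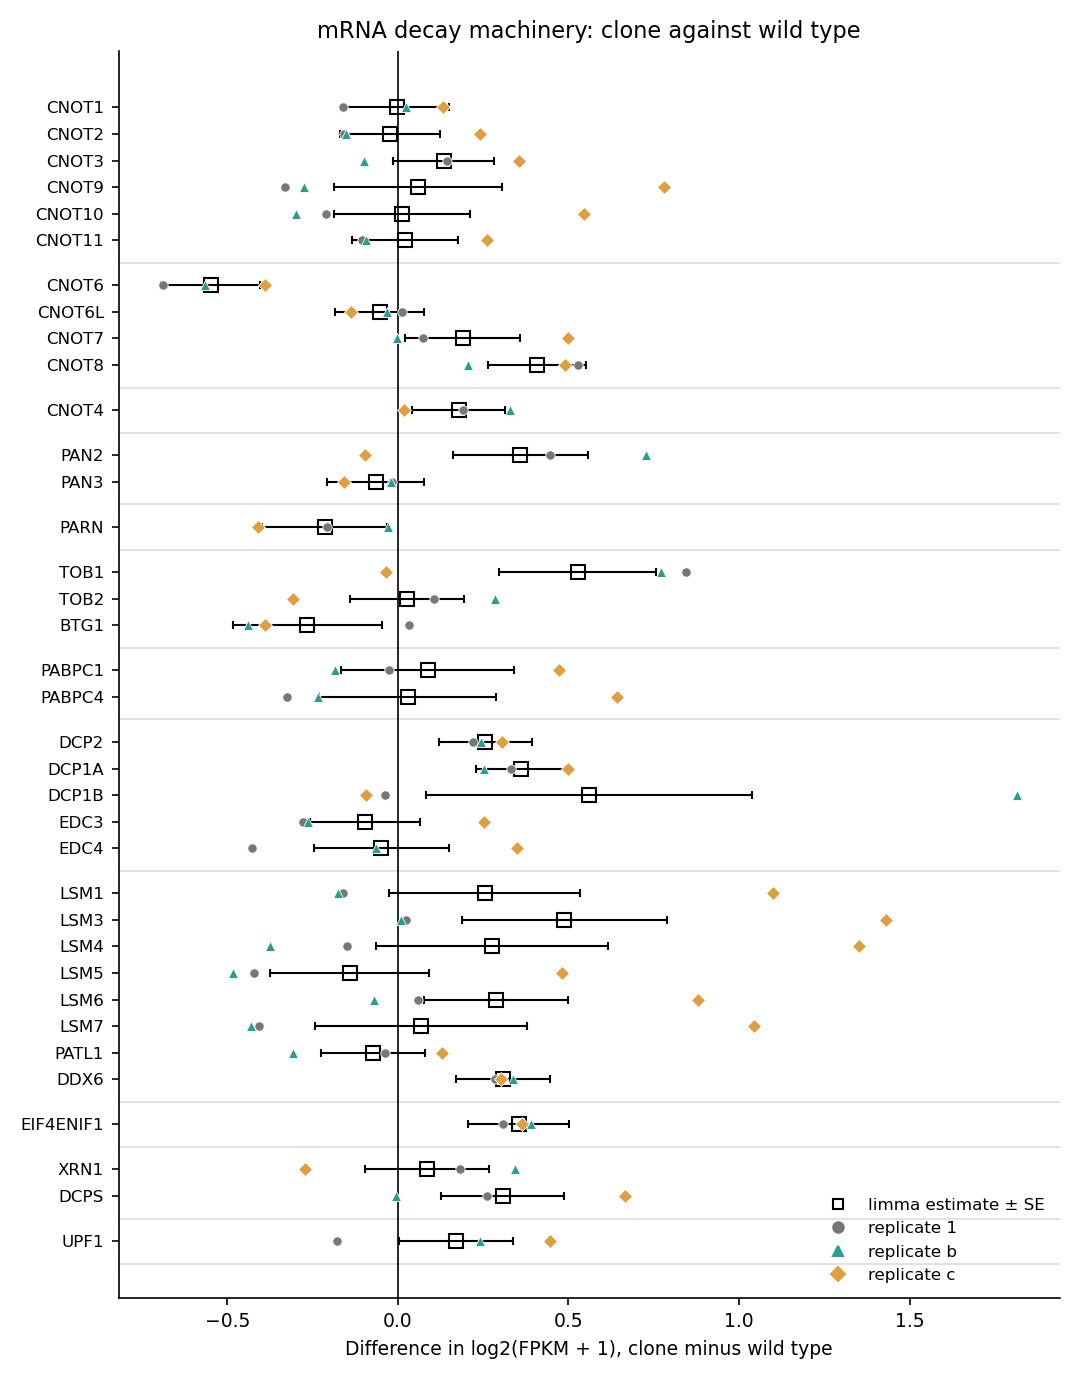
Difference in log2(FPKM + 1), clone minus wild type, for the 36 members grouped by role (horizontal lines separate roles). Filled symbols are the 3 replicate pairs and open squares the limma estimate with its standard error; CNOT6 lies left of 0 in all 3 pairs, and the replicate c points of the LSM genes lie between 0.48 and 1.43.

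CCR4-NOT is built on CNOT1, the scaffold on which the other subunits dock. CNOT1 was at 194 FPKM in WT against 174 in the clone for replicate 1, 21.7 against 22.0 for b, and 18.9 against 20.8 for c. Both genotypes thus lay close together within each pair, with a log2 fold change of 0.00 (SE 0.15, 95% interval -0.37 to 0.37). The other docking subunits were CNOT2 and CNOT3, which form the NOT module, CNOT9, which binds several RNA-binding adaptors, and CNOT10 and CNOT11, which form a module at the scaffold's amino end. These 5 had log2 fold changes between -0.02 and 0.13. Of the 6 docking subunits, 4 were lower in replicates 1 and b and higher in replicate c. So were 13 of all 36 members and 19.3% of all genes. CNOT9 showed the widest spread among them, with differences of -0.33, -0.27 and 0.78 for replicates 1, b and c. Without replicate c its log2 fold change was -0.30 (limma adjusted p = 0.136). CNOT4, a ubiquitin ligase bound to the complex, had 9.41 FPKM in WT against 10.9 in the clone for replicate 1, 2.53 against 3.43 for b, and 3.14 against 3.20 for c.

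The catalytic subunits of CCR4-NOT come as paralog pairs, and the members with the lowest p in this complex were among them. CNOT6 (ENSG00000113300, chromosome 5, 180494412 to 180578405, plus strand) is a nuclease of the CCR4 type. Its FPKM was 41.7 in WT against 25.5 in the clone for replicate 1, 13.2 against 8.62 for b, and 11.1 against 8.20 for c. The clone was lower in 3 of 3 pairs, and in the second table both clone libraries lay below both WT libraries. For all genes, 14.8% showed this separation downwards. The 67 genes around CNOT6 had a median log2 fold change of -0.38, with 44 lower and 2 higher in all 3 pairs. The log2 fold change of CNOT6 was -0.55 (SE 0.14, 95% interval -0.90 to -0.20, limma unadjusted p = 0.0086, adjusted p = 0.211). Leaving out replicate c, which left 1 residual degree of freedom, it was -0.63 with an adjusted p of 0.026. The paralog CNOT6L had 20.05 FPKM in WT against 20.2 in the clone for replicate 1, 3.32 against 3.23 for b, and 3.19 against 2.80 for c, with a log2 fold change of -0.05 (SE 0.13).

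CNOT8 (ENSG00000155508, chromosome 5, 154857553 to 154876793, plus strand) is a nuclease of the CAF1 type. It had 47.5 FPKM in WT against 68.9 in the clone for replicate 1, 12.9 against 15.1 for b, and 11.3 against 16.3 for c. The clone was above WT in replicate 1, and in the second table both its libraries lay above both WT libraries. This held for 14.9% of all genes. The log2 fold change was 0.41 (SE 0.14, 95% interval 0.06 to 0.75, limma unadjusted p = 0.0278, adjusted p = 0.301). Its paralog CNOT7 had 82.8 FPKM in WT against 87.1 in the clone for replicate 1, 7.24 against 7.22 for b, and 6.89 against 10.2 for c, so that only replicate c set the genotypes well apart. CNOT7 had a log2 fold change of 0.19 (SE 0.17).

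Ratios within a library cancel its scale. The log2 ratio of CNOT6 to CNOT6L was 1.06 in WT against 0.34 in the clone for replicate 1, 1.99 against 1.41 for b, and 1.80 against 1.55 for c. It was smaller in the clone in 3 of 3 pairs, by 0.72, 0.58 and 0.25. The CNOT7 to CNOT8 ratio differed by -0.46, -0.22 and 0.03 (clone minus WT). With genotype labels permuted within tables, 12 arrangements are possible and the smallest two-sided p is 0.167. The CNOT6 ratio reached that value (exact permutation p = 0.167, adjusted over 5 paralog pairs 0.833), which cannot pass 0.05. The other 4 pairs had exact permutation p between 0.333 and 1.

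**Figure D2:**
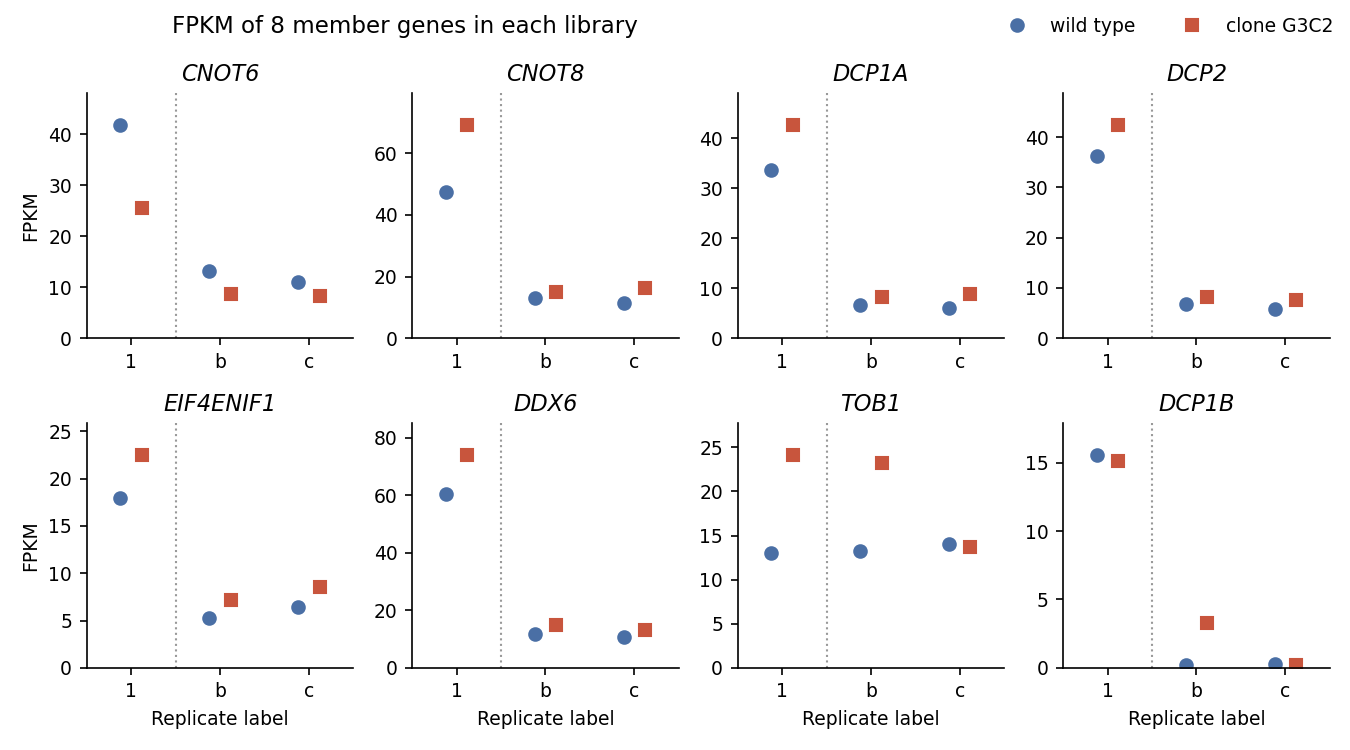
FPKM of 8 members in each library, wild type (circles) and clone (squares), by replicate label, each panel with its own axis from 0 and a dotted line between the first and the second table. CNOT6 is lower in the clone in all 3 pairs, CNOT8, DCP1A, DCP2, EIF4ENIF1 and DDX6 are higher in all 3, and DCP1B is at 3.29 in clone replicate b and below 0.3 in the other libraries of its table.

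PAN2 and PAN3 form the complex that trims long tails, PAN2 as the nuclease and PAN3 as its anchor on poly(A)-bound messages. PAN2 had 15.8 FPKM in WT against 21.9 in the clone for replicate 1, 4.44 against 8.01 for b, and 7.31 against 6.77 for c. The clone was higher in 2 of 3 pairs (log2 fold change 0.36, SE 0.20, limma adjusted p = 0.476). Its value was 0.20 without WT replicate b, 0.55 without WT replicate c, 0.17 without replicate b of both genotypes and 0.59 without replicate c of both (limma adjusted p = 0.0535 in the last). PAN3 had differences of -0.02, -0.02 and -0.16. PARN, a poly(A) nuclease acting largely on nuclear and noncoding RNA, had 40.2 FPKM in WT against 34.6 in the clone for replicate 1, 0.92 against 0.89 for b, and 1.83 against 1.13 for c. It was lower in the clone in 3 of 3 pairs, by 0.03 to 0.41 on the log2 scale, with a fitted value of -0.22 (SE 0.18).

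TOB1, TOB2 and BTG1 belong to the antiproliferative BTG/TOB family, which bridges the CAF1 nucleases to messages. TOB1 had 13.0 FPKM in WT against 24.1 in the clone for replicate 1, 13.2 against 23.3 for b, and 14.0 against 13.7 for c. The clone was thus 1.86-fold and 1.76-fold above WT in replicates 1 and b and 0.974-fold in replicate c. The log2 fold change was 0.53 (SE 0.23, limma adjusted p = 0.391). Without replicate c, which left 1 residual degree of freedom, it was 0.81 (limma adjusted p = 0.0128). In that fit 2.99% of all genes were higher and 3.05% lower past the adjusted threshold, against 0.0467% in either direction with all libraries. Without WT replicate c, with clone replicate c kept, the log2 fold change of TOB1 was 0.59 (limma adjusted p = 0.641). The antisense gene TOB1-AS1 overlaps 11.1% of the TOB1 exon bases, and without strand their reads cannot be told apart. TOB2 had 26.9 FPKM in WT against 28.99 in the clone for replicate 1, 17.5 against 21.6 for b, and 23.4 against 18.7 for c. Here too the clone exceeded WT for replicates 1 and b but not for c. BTG1 had 6.80 FPKM in WT against 6.97 in the clone (replicate 1), 5.93 against 4.11 (b) and 3.86 against 2.71 (c), with a log2 fold change of -0.27 (SE 0.22).

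PABPC1 and PABPC4 coat the poly(A) tail in the cytoplasm. PABPC1 was the most abundant member in both tables, at 2832 FPKM in WT against 2783 in the clone for replicate 1, 505 against 444 for b, and 419.8 against 582 for c. Reads of its many pseudogenes could be assigned to it or away from it. PABPC4 had 193 FPKM in WT against 154 in the clone (replicate 1), 35.1 against 29.7 (b) and 33.7 against 53.2 (c). Both were lower in the clone in replicates 1 and b and higher in c, and their log2 fold changes were 0.09 (SE 0.25) and 0.03 (SE 0.26). The log2 ratio between the 2 genes stayed between 3.45 and 4.18 in the 6 libraries.

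The decapping enzyme and its activator DCP1A had higher FPKM in the clone in 3 of 3 pairs, without passing the adjusted threshold. DCP1A (ENSG00000272886, chromosome 3, 53283428 to 53347610, minus strand) activates the decapping enzyme. It had 33.6 FPKM in WT against 42.6 in the clone for replicate 1, 6.69 against 8.16 for b, and 6.0 against 8.88 for c. The clone was higher in replicate 1, and in the second table both its libraries lay above both WT libraries. For all genes, 14.9% showed this separation upwards. The log2 fold change of DCP1A was 0.36 (SE 0.13, 95% interval 0.04 to 0.68, limma unadjusted p = 0.0336, adjusted p = 0.32). DCP2, the enzyme itself, had 36.2 FPKM in WT against 42.3 in the clone (replicate 1), 6.82 against 8.26 (b) and 5.89 against 7.52 (c). Its differences of 0.22, 0.24 and 0.30 were close to one another, with a log2 fold change of 0.26 (SE 0.14, 95% interval -0.07 to 0.59). The last of these depends on the library scale. In replicate c DCP2 held 1490 of 22614634 recovered reads in WT and 1687 of 25844651 in the clone. Its fitted value was 0.29 with equal medians and 0.25 with limma-voom on the second table. EDC3 and EDC4, scaffolds that promote decapping, had log2 fold changes of -0.10 (SE 0.16) and -0.05 (SE 0.20). EDC4 shares 21.2% of its exon bases with AC040162.3 on the same strand, and EDC3 13.7% with CLK3 on the opposite strand. BTG1 and CNOT1, described above, share 17.1% and 11.2% with other genes. The levels of these members are therefore less certain.

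DDX6 is a helicase that joins CCR4-NOT to decapping, and EIF4ENIF1 binds the cap-binding protein and DDX6. Both also had higher FPKM in the clone in 3 of 3 pairs, without passing the adjusted threshold. DDX6 had 60.6 FPKM in WT against 74.1 in the clone for replicate 1, 11.7 against 15.04 for b, and 10.6 against 13.3 for c. Its log2 fold change was 0.31 (SE 0.14, limma unadjusted p = 0.0671). EIF4ENIF1 had 17.97 FPKM in WT against 22.5 in the clone (replicate 1), 5.25 against 7.19 (b) and 6.42 against 8.54 (c), with a log2 fold change of 0.35 (SE 0.15, limma unadjusted p = 0.0515). Over all 36 members, 7 were higher in the clone in all 3 pairs (CNOT8, CNOT4, DCP2, DCP1A, LSM3, DDX6 and EIF4ENIF1), against 17.8% of all genes. Another 3 were lower in all 3 pairs (CNOT6, PAN3 and PARN), against 18.6%. These directions are those of FPKM, and for DCP2, DDX6 and CNOT4 the direction in replicate c depends on the library scale. There DDX6 held 3082 recovered reads in WT and 3436 in the clone, and CNOT4 559 and 505, of 22614634 and 25844651 in all. For DDX6 the fitted value was 0.34 with equal medians and 0.28 with limma-voom on the second table.

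DCP1B, the second DCP1 protein, stood apart in a single library. It had 15.6 FPKM in WT against 15.1 in the clone for replicate 1, 0.22 against 3.29 for b, and 0.27 against 0.19 for c. Clone replicate b held 402 recovered reads (95% Poisson interval 364 to 443), while the other 3 libraries of its table held 30, 32 and 20. These intervals cover counting error only. The fitted log2 fold change of 0.56 (SE 0.48) was -0.05 without clone replicate b. The log2 ratio of DCP1A to DCP1B accordingly differed by 0.38, -3.62 and 1.07 in the 3 pairs.

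The LSM genes differed between the replicate pairs, with replicate c standing apart. LSM1 to LSM7 proteins form the ring that binds the shortened 3′ end and activates decapping, and all of them but LSM1 are also part of the nuclear ring that binds U6 RNA. LSM3 had 25.2 FPKM in WT against 25.6 in the clone for replicate 1, 20.2 against 20.3 for b, and 10.9 against 31.2 for c. LSM4 had 99.3 FPKM in WT against 89.4 in the clone (replicate 1), 45.8 against 35.1 (b) and 23.2 against 60.8 (c). LSM5 had 118 against 87.7, 18.2 against 12.7 and 15.1 against 21.4 FPKM in the same order, and LSM7 had 79.6 against 59.7, 45.4 against 33.4 and 28.1 against 59.1. The clone was above WT for 2 of 6 LSM members in replicate 1, 1 of 6 in replicate b and 6 of 6 in replicate c. Of all 15001 tested genes, 6153, 7222 and 8254 were higher in the clone in these pairs.

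Within the second table the shift lay in both genotypes. From replicate b to c, all 6 LSM members were lower in WT and higher in the clone, a combination found in 36% of all tested genes. Their median difference was -0.54 in WT and 0.74 in the clone, against -0.06 and 0.05 over all genes. The other 30 members had medians of -0.14 and 0.11, and 14 of them showed the combination. Cytosolic ribosomal protein genes had medians of -0.63 and 0.58 (77 of 84 genes with the combination), and 24 markers of proliferation had -0.72 and 0.59 (24 of 24). The part of growth state in the LSM values was not tested, and in bulk RNA fewer cells of a state and less RNA per cell cannot be told apart. The medians of the 6 LSM members per pair were -0.15, -0.28 and 1.07 for replicates 1, b and c. From b to c the summed FPKM went from 261460 to 232757 in WT and from 255850 to 316551 in the clone. The read total by which FPKM was divided also differed from the reads recovered. This divisor was 29670500 for 28977502 reads in WT b and 26515300 for 26099857 in clone b. It was 25406400 for 22614634 reads in WT c and 22558800 for 25844651 in clone c. Relative to these reads, FPKM was scaled down more in WT c than in WT b, and scaled up in clone c. Median log2(FPKM + 1) of tested genes stayed between 2.59 and 2.61. With quantile normalization within each table, fitted values were 0.20 (LSM1), 0.40 (LSM3), 0.12 (LSM4), -0.26 (LSM5), 0.31 (LSM6) and -0.08 (LSM7). The part of this difference between whole libraries in the LSM values was not tested.

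**Figure D3:**
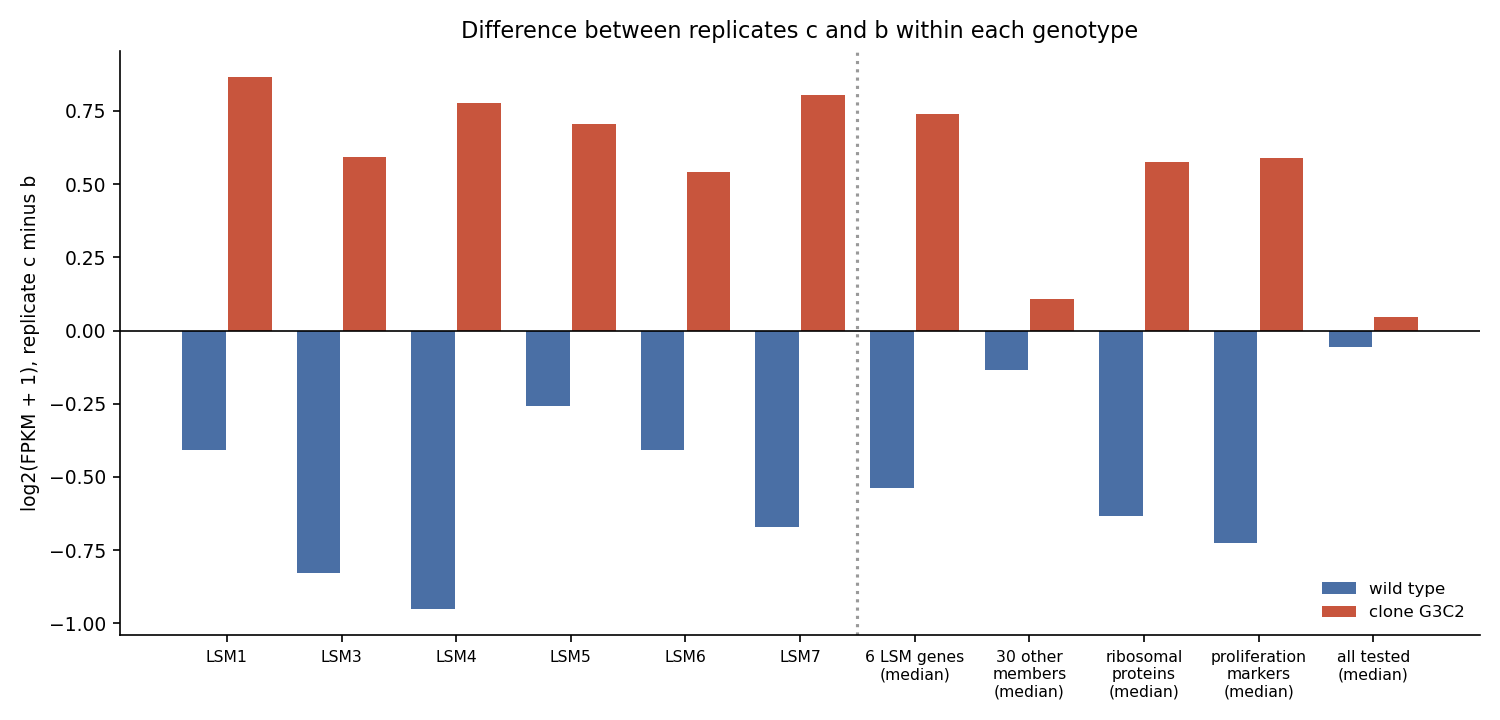
Difference in log2(FPKM + 1) between replicates c and b in wild type (blue) and in the clone (red). Bars left of the dotted line are single LSM genes and bars right of it are medians over the named groups; all 6 LSM genes lie below 0 in wild type and above 0 in the clone, as do the medians of ribosomal protein genes and proliferation markers.

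Over all members, 13 were lower in the clone in replicates 1 and b and higher in c, against 19.3% of all genes. Another 4 (PAN2, TOB1, TOB2 and XRN1) showed the reverse, against 10.3%. The fitted log2 fold changes of the LSM members lay between -0.14 (LSM5) and 0.49 (LSM3), with limma adjusted p between 0.517 and 0.936. Without replicate c, LSM5 was at -0.45 (limma adjusted p = 0.0485), LSM7 at -0.42 (0.0571) and LSM4 at -0.26 (0.212). In the same fit LSM1 was at -0.17, LSM3 at 0.02 and LSM6 at -0.01, against 0.25, 0.49 and 0.29 with all libraries. Without that replicate 1 member (TOB1) was higher and 2 (CNOT6 and LSM5) were lower past the adjusted threshold, where 2.99% and 3.05% of all genes were. LSM1 shares 38.5% of its exon bases with other genes, mostly an antisense one, so its level is uncertain. PATL1, which holds the ring and the decapping enzyme together, had log2 differences of -0.04, -0.31 and 0.13. None of the 36 members had an unadjusted p under 0.05 for a difference in effect between the tables (limma interaction, lowest unadjusted p = 0.126, adjusted p = 0.948), where 2.86% of all genes had an unadjusted p under 0.05. That comparison sets replicate 1 against b and c together, and its residual is the spread between b and c. It therefore cannot address how replicate c differed, nor show that the tables had equal effects.

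XRN1, the exonuclease that degrades decapped messages, had 29.1 FPKM in WT against 33.1 in the clone for replicate 1, 3.71 against 4.98 for b, and 3.93 against 3.08 for c. The clone exceeded WT for replicates 1 and b but not for c, with a log2 fold change of 0.09 (SE 0.18). DCPS, which hydrolyses the cap left after decay from the 3′ end, had differences of 0.26, -0.01 and 0.67. UPF1, the helicase of nonsense-mediated decay, had differences of -0.18, 0.24 and 0.45 and a log2 fold change of 0.17 (SE 0.17).

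Position on the chromosome was set beside 3 members whose neighbours were shifted in the clone, chosen after the values were seen. Protein-coding genes within 5 Mb of each member were used. The 67 neighbours of CNOT6 had median differences of -0.66 (replicate 1), -0.44 (b) and -0.23 (c), and 44 of them were lower in all 3 pairs. CNOT6 itself had -0.69, -0.57 and -0.39, and 22 of its neighbours had a lower fold change than it did. PAN2, on chromosome 12, had 122 neighbours with medians of 0.40, 0.30 and 0.46, of which 74 were higher in all 3 pairs, beside its own 0.45, 0.73 and -0.10. LSM5, on chromosome 7, had 28 neighbours with medians of -0.32, -0.35 and -0.41, of which 20 were lower in all 3 pairs, beside its own -0.42, -0.48 and 0.48. For the remaining 33 members the median fold change of the neighbours lay between -0.12 and 0.18, and for CNOT8 and DCP1A it was 0.04 and 0.01. It was 0.17 for EIF4ENIF1, and 25 of its 70 neighbours were higher in all 3 pairs, against 17.8% of all genes. For DCP2, DDX6 and TOB1 it was 0.09, -0.01 and 0.02. The lowest of the 33 was that of CNOT9, whose 49 neighbours had medians of -0.35, -0.20 and 0.03 in replicates 1, b and c. CNOT9 itself had -0.33, -0.27 and 0.78, and 13 of its neighbours were lower and 1 higher in all 3 pairs. DNA copy number was not measured, and its part in these values was not tested.

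**Figure D4:**
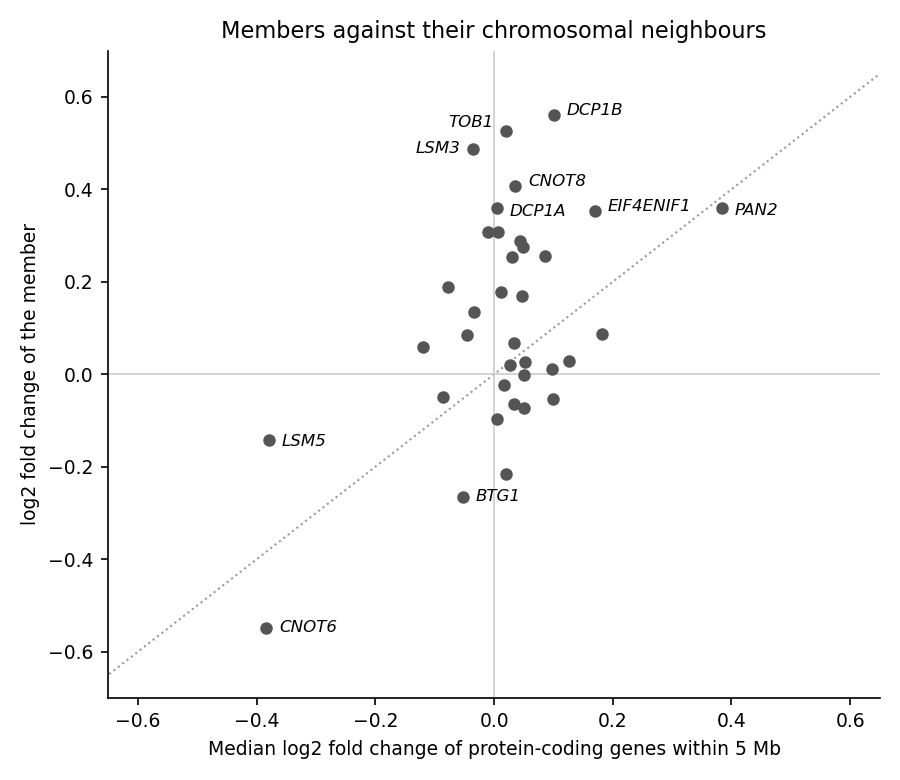
Fitted log2 fold change of each of the 36 members (vertical) against the median log2 fold change of tested protein-coding genes within 5 Mb (horizontal); the dotted line marks equality. CNOT6 and LSM5 have neighbour medians of -0.38 and PAN2 of 0.38, and the other 33 lie between -0.12 and 0.18 on the horizontal axis.

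Levels of the members differed between the tables beyond a common scale. FPKM is per kilobase, so levels are compared between genes within a table only. By mean FPKM, PABPC1, CNOT1 and PABPC4 were the 3 most abundant members of the first table, and PABPC1, LSM7 and LSM4 those of the second. CNOT3, DCP1B and PARN were the 3 lowest of the second table, where they ranked 26, 31 and 18 among 36 in the first. CNOT3 was at 20.2 FPKM in WT against 22.4 in the clone for replicate 1, but at 0.80 against 0.68 for b and 0.61 against 1.06 for c. The WT level in the second table relative to the first ranged from 0.0158-fold (DCP1B) to 1.05-fold (TOB1), with a median of 0.229 over the members and 0.390 over all genes. Across the 36 members the rank correlation of the mean levels was 0.65 (Spearman), a description over genes that share libraries.

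Genes that work beside the members were read from 6 further lists, and none of their tested genes passed the adjusted threshold. The counts that follow are at an unadjusted limma p under 0.05, which 6.19% of all genes passed as higher and 7.43% as lower. The exosome, which degrades RNA from the 3′ end, with its cofactors had 0 of 20 genes at an unadjusted limma p under 0.05 in either direction. TTC37, a subunit of its cytoplasmic cofactor and the most abundant gene of that list, had a log2 fold change of 0.09 (SE 0.15). The list had median differences of -0.21, -0.04 and 0.80 for replicates 1, b and c. Of 14 nonsense-mediated decay factors 1 was higher, SMG8 (0.36, SE 0.14), a regulator of the kinase SMG1.

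Among 20 other deadenylases and poly(A) factors 1 was higher and 2 were lower at this unadjusted level. BTG3, a relative of BTG1, had 83.7 FPKM in WT against 114 in the clone for replicate 1, 21.5 against 31.4 for b, and 19.9 against 47.2 for c (log2 fold change 0.72, SE 0.21). PAIP2B, an inhibitor of poly(A)-binding protein, was at -0.70 (SE 0.17) and the deadenylase ANGEL1 at -0.48 (SE 0.15). The limma adjusted p of the 3 genes lay between 0.199 and 0.255. Of 10 other decapping factors 1 was higher, LSM14B (0.42, SE 0.15), whose 57 neighbours had a median of 0.46.

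Of 10 proteins of microRNA silencing 1 was higher and 1 lower. DICER1, which cuts microRNA precursors, was at 0.74 (SE 0.18), and its 43 neighbours on chromosome 14 had a median of 0.72. AGO4 had -0.56 (SE 0.22). Among 23 RNA-binding recruiters, ZFP36L1 included, 4 were higher and 2 lower, or 26.1% of the list against 13.6% of all genes. NANOS1, which recruits CCR4-NOT in germ cells, had 0.92 (SE 0.16, limma adjusted p = 0.132), with 1.06, 1.42 and 0.84 FPKM in the WT libraries against 3.30, 2.72 and 2.87 in those of the clone. ZFP36L2, the paralog of the targeted gene, had 0.56 (SE 0.18), and ZC3H12A, an endonuclease that cuts inflammatory messages, -0.58 (SE 0.19).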

How the data were processed

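The members and gene lists were chosen with earlier results of these data known. The authors deposited gene values as FPKM (fragments scaled to gene length and library size) in 2 tables. CASAVA and HISAT2 were used with GRCh38.p12, per the submitters' processing notes. The counting method, strand setting and annotation are not given in the sources used here. Symbols were matched through GENCODE 29. Genes listed in both tables were tested if 2 or more libraries reached 1 FPKM, and 15001 did.

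The test was limma 3.58.1 (R 4.3.3) on log2(FPKM + 1) with terms for genotype and table and with a trended prior variance. Benjamini-Hochberg adjustment ran over all 15001 genes at 0.05. Such fold changes understate the change of low genes. When this comparison was simulated with 15001 genes, 29 of 50 genes changed 2-fold and 48 of 50 changed 4-fold were recovered, with 7 false calls. Alternatives covered the pseudocount, filters, scalings, the replicate block, the second table alone and each library or pair left out. The second table's values were whole reads for 97.3% to 97.4% of values, within 0.02 reads, with union exon lengths, and these reads (22614634 to 28977502 per library) entered limma-voom. For the first table depth is unknown.

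Same-labelled libraries deviated together from their group means (r = 0.93 for replicate 1, 0.80 for b, 0.60 for c). These correlations include the difference between tables, so they cannot show pairing. Within the second table r was -0.17, which gives no sign that b and c were paired. A pair here means only the WT and clone libraries with the same label. The main fit used no pairing, and the replicate block was an alternative. Values in every library are given for members with an unadjusted p under 0.05, for those with a log2 fold change of at least 0.5 in size and 1 direction in all 3 pairs, for the 3 highest and 3 lowest members of the second table and for paralogs. Other members given in full were chosen after their values were seen. In each pathway list, up to 3 genes with the smallest unadjusted p under 0.05 are named, or else the most abundant gene. One marker gene is not reported here.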

Additional observations from a re-analysis of the deposited data

How the results depend on the processing

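The sign of the fold change held under all 20 alternatives for 17 of 36 members, CNOT6, CNOT8, DCP1A, TOB1, DDX6 and EIF4ENIF1 among them, and changed in at least 1 for the other 19. With the replicate block, which changed no adjusted call among the members, 0 members were higher and 1 lower at an unadjusted p under 0.05 (main result 2 and 1), and 0 and 1 genes passed the adjusted threshold (main result 3 and 4). Members higher numbered 4 without a filter and 4 with equal medians, and 0 with limma-voom. Omitting the table term, or using only the second table (with or without the replicate block), left 0 higher and 0 lower. Over all genes, 0 were higher and 0 lower with no filter, in those same settings and with limma-voom, 5 were higher with equal medians, and 1 was lower at a mean FPKM of at least 5. When libraries or pairs were left out, between 0 and 448 genes were higher and between 0 and 457 lower, with 0 to 7 members higher, 0 to 6 lower and 0 to 3 past the adjusted threshold, the most without replicate c. Over all genes the unadjusted share in these settings ran from 7.4% to 22.5%, the latter without replicate c. There CNOT9, PABPC4, LSM4 and LSM7 were below 0, and the values with libraries left out ran from -0.30 to 0.25, -0.28 to 0.21, -0.26 to 0.60 and -0.42 to 0.32, against 0.06, 0.03, 0.28 and 0.07 with all libraries. ATTTA in place of TATTTAT was found in 28 members, where holding the heptamer already implies at least 16. The causes were otherwise not tested. DCP1B, CNOT3 and PARN rest on between 20 and 402 recovered reads per library, and the depth of replicate 1 is unknown.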
